A study of Mus musculus with 6 samples.

Results

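Mitochondrial protein import genes of the mouse melanoma line B16F10 were compared between extract-treated and control cells. Protein-coding genes were taken by symbol, as every Tomm or Timm gene followed by a digit together with Samm50, Mtx1, Mtx2, Pmpca, Pmpcb, Hspa9, Grpel1, Grpel2, Dnajc19 and Pam16. This gave 35 of the 27067 genes in the deposited count table. The choice used no measured value, and 32 of the 35 genes had enough counts to be tested. B16F10 is an established, pigmented melanoma line derived from C57BL/6 mice. The 3 control libraries came from B16F10 cells that the titles call control and the library names call blank. The 3 treated libraries came from B16F10 cells given an extract of Polianthes tuberosa L. (tuberose). All 6 libraries are of polyadenylated RNA, which was extracted from every sample at the same time. The labels state no dose, exposure time or passage number, and no solvent for the controls, so what a solvent did and what the extract did cannot be told apart. They also do not say whether replicates were separate cultures, and p-values therefore reflect only the spread between these libraries, which may be technical.

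Nearly all mitochondrial proteins are encoded in the nucleus, made in the cytosol and brought into the organelle through protein complexes of its membranes. The TOM complex of the outer membrane is the common entry gate. Proteins with a cleavable presequence pass on through the TIM23 complex of the inner membrane, are pulled into the matrix by a motor built on the chaperone mortalin, and are trimmed by the matrix processing peptidase (MPP). Carrier proteins are guided by small TIM chaperones to the TIM22 complex, and barrel-shaped outer membrane proteins are inserted by the SAM complex. Many of these genes are housekeeping genes, expressed in nearly every cell type.

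Libraries held between 31183728 and 40129044 counts. Melanocytic markers (Pmel, Dct, Tyr, Tyrp1, Mlana, Mitf and Sox10) fitted the label, with a summed level of 16700 to 17300 CPM (counts relative to the TMM-scaled library size) in the controls and 13900 to 14700 CPM in the treated libraries. Immune markers summed to at most 0.0643 CPM in the controls and 0.236 CPM in the treated libraries, keratinocyte markers to at most 0.0512 and 0.0589 CPM, and endothelial markers to at most 0.384 and 0.519 CPM. The melanocytic sum thus moved with the treatment, and its part in the values of the import genes was not tested. Its markers did not move together, since 6 were lower and 1 was higher. The higher one was Tyrp1, from 5288 ± 188 to 5935 ± 276 CPM (edgeR adjusted p = 1.88e-06). Fibroblast markers summed to between 7.24 and 10.7 CPM in control libraries and between 9.93 and 11.3 CPM in treated ones. Among them Col1a1 rose from 3.35 ± 0.324 to 5.56 ± 0.247 CPM (edgeR adjusted p = 6.36e-05), with every treated library above every control, while Col1a2 and Pdgfra did not pass and Lum held 2 counts in all. Whether the source of the Col1a1 reads bears on the import genes was not tested. No 2 libraries were copies of each other, since the chi-square per gene was at least 3.25 for every pair.

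Most import genes had lower mRNA levels in treated cells, by modest amounts. Of the 32 tested genes, 23 were lower, 1 was higher and 8 did not pass (edgeR quasi-likelihood test, Benjamini-Hochberg adjusted p under 0.05 over all 15150 tested genes). Over all tested genes, 27.9% were lower and 25.1% higher, against 71.9% lower among the import genes. Among the more abundant protein-coding genes (mean level 5 CPM or more) 39.3% were lower and 26.6% higher. The median log2 fold change of the tested import genes was -0.19, and that of all tested genes was 0.01. The changes ran from -0.59 for Timm50 to 0.14 for Timm8b, and 8 genes fell by at least 20%, namely Timm50, Mtx1, Tomm40, Timm13, Samm50, Timm23, Timm22 and Dnajc19. Of all tested genes, 9.95% passed with a fall of at least 20%. All 3 treated libraries lay below all 3 controls for 23 import genes and above them for 1, while over all tested genes the groups did not overlap for 58.7%, with every treated library below for 30.3% and above for 28.4%. With library totals in place of TMM scaling factors, 14 import genes were lower, 1 was higher and 20.1% of all tested genes were lower. That scaling also turned the split of all calls, with 62.5% of them higher, while the median import gene still had a log2 fold change of -0.11.

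**Figure D1:**
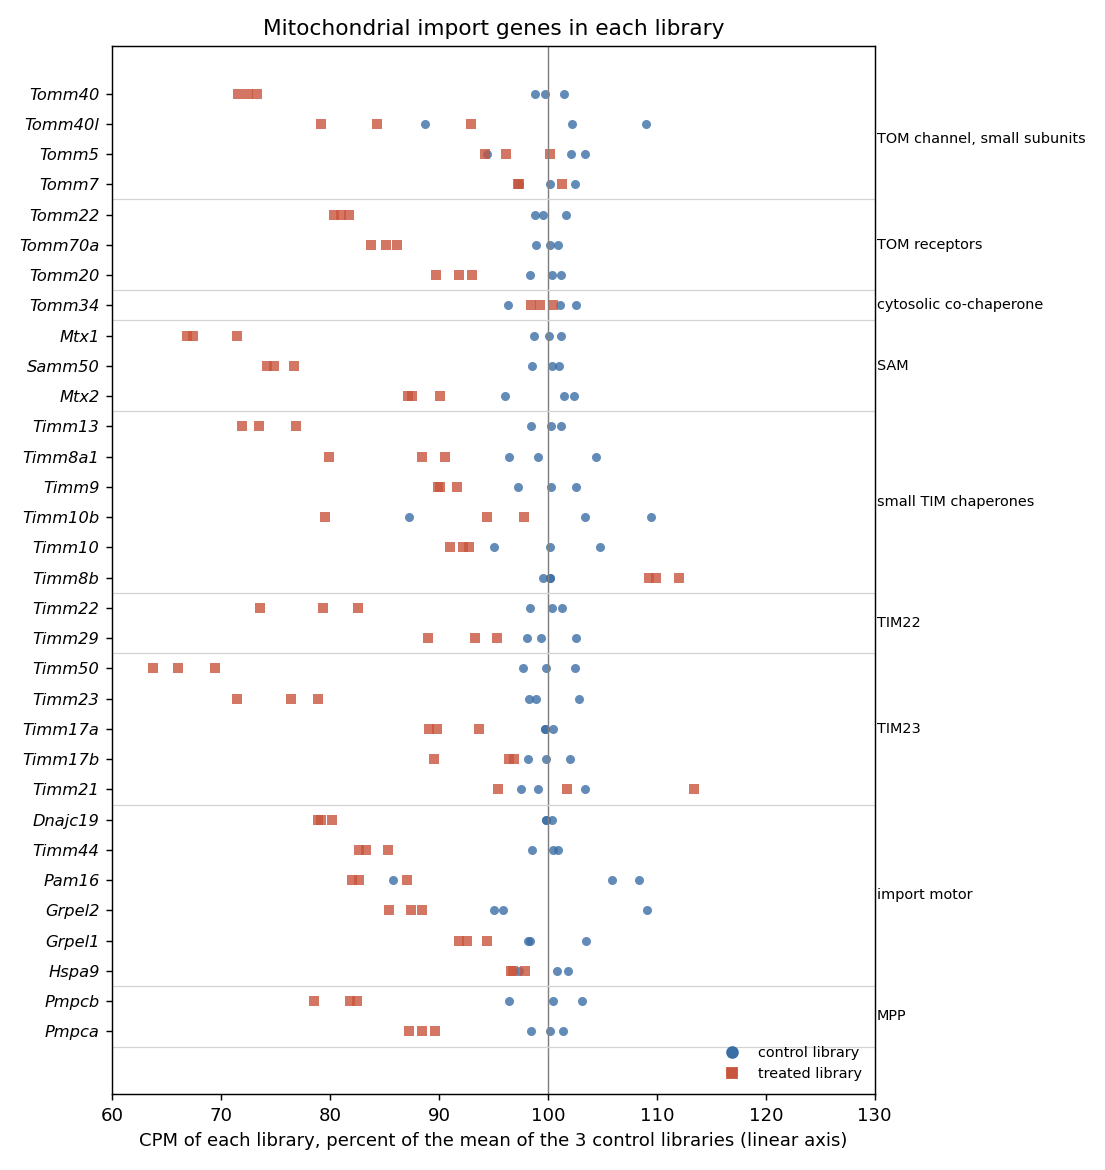
CPM of each tested import gene in each library, as a percent of the mean of the 3 control libraries (horizontal axis, linear), with circles for control and squares for treated libraries and genes grouped by role. The treated libraries lie left of all controls for 23 genes and right of them for Timm8b.

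Summed over all 35 genes, import mRNA came to 3416, 3438 and 3438 CPM in control replicates 1, 2 and 3, and to 3008, 3028 and 3038 CPM in treated replicates 1, 2 and 3. The groups did not overlap. The share of raw counts, which uses library totals and no TMM factor, was 0.333% to 0.334% in control and 0.309% to 0.311% in treated libraries. This is a smaller relative gap than that of the CPM sums. Hspa9 alone made up 27% to 28.1% of the sum in control and 30.3% to 30.5% in treated libraries. In bulk RNA, fewer cells expressing a gene and less of its RNA per cell cannot be told apart, and CPM values are relative to the other RNA of the library.

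The order of levels was compared per exon length, as RPKM, which is CPM divided by the exon length in kilobases. In control cells Hspa9 was highest at 219.8 ± 5.19 RPKM (SD, n = 3), followed by Timm8b at 91.4 ± 0.326, Tomm22 at 85.2 ± 1.39, Timm13 at 80.0 ± 1.01 and Tomm7 at 60.9 ± 1.55 RPKM. The lowest tested genes were Tomm40l at 2.31 ± 0.236 and Timm10b at 2.57 ± 0.293 RPKM, whose spreads touch. Grpel1 at 25.2 ± 0.769 and Tomm40 at 25.1 ± 0.317 RPKM were also within each other's spread. Lengths are the union of all annotated exons, which understates the level of genes with long rarely used exons. Exons of Tomm40l and Timm10b overlap other genes, as given below, and whether the counting of shared reads lowers their levels was not tested. Timm8b passed further above Tomm22 in treated cells, at 100.8 against 69.1 RPKM.

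**Figure D2:**
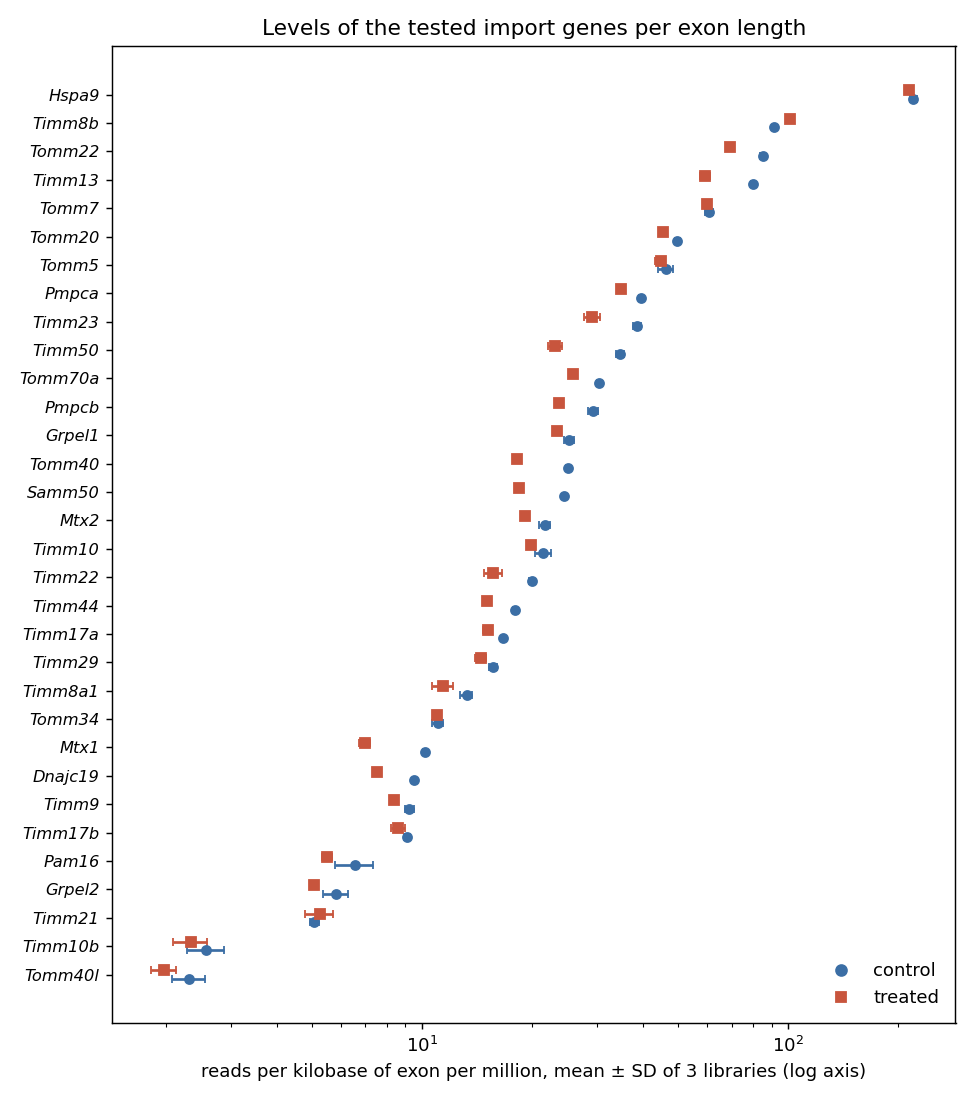
Levels of the 32 tested import genes in RPKM (horizontal axis, log scale), as mean ± SD of 3 libraries, for control (circles) and treated (squares) cells. Hspa9 stands at the top with 219.8 RPKM and Tomm40l at the bottom with 2.31 RPKM in control cells.

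Promoter sequences were examined because most of these genes moved in the same direction. RefSeq windows (GRCm38.p6, 250 bases before to 50 after the annotated start) were matched by symbol for 30 of the 35 genes. The letters CCGGAAG, the core of sites for ETS factors such as GABP, were present on either strand in 14 of the 30 genes (46.7%), against 20.6% of 9648 tested protein-coding genes with a window and 8.86% of all windows. They were found in 9 of the 21 lower genes with a window and in 4 of the 6 tested genes with a window that were not lower. Genes without a window were Grpel2 and Tomm40l, which were lower, and Hspa9, Timm21 and Tomm7, which did not pass. The palindromic NRF1 motif, with its central A allowed to be any base, was found in 3 of 30 genes (Pam16, Timm8b and Tomm20), or 10%, against 11.8% of tested protein-coding genes and 4.6% of all windows. The exact NRF1 palindrome, which the former includes, was found in 0 of 30 and in 2.43% of tested protein-coding genes. The YY1-type letters AAGATGGCG were found in Mtx1 and Timm50, or 6.67% against 3.66%, and the E-box CACGTG in 5 genes, or 16.7% against 11.8%. The CRE letters TGACGTCA and the ATF4-type letters TGATGNAA were found in 0 of 30 windows, against 3.62% and 2.74% of tested protein-coding genes. CCAAT was found in 10 genes, or 33.3% against 43.3%. The shares over all windows were 0.971% for the exact NRF1 palindrome, 1.4% for AAGATGGCG, 7.15% for CACGTG, 1.79% for TGACGTCA, 3.97% for TGATGNAA and 37.4% for CCAAT. A match describes letters in the window and not a bound site.

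The 120 bases before the start, 5′ to 3′ on the gene's strand, are shown for the gene that fell most (Timm50), for 3 lower genes with the ETS core (Tomm22, Timm23 and Pmpcb), for the gene that rose (Timm8b) and for the receptor gene with the NRF1 motif before its start (Tomm20). Capitals mark CCGGAAG, the NRF1 motif with that free base, and CCAAT, each on either strand. They lie at chr7:28312047-28312166 (minus strand) for Timm50, chr15:79670748-79670867 (plus) for Tomm22, chr14:32201892-32202011 (minus) for Timm23, chr5:21737040-21737159 (plus) for Pmpcb, chr9:50603781-50603900 (plus) for Timm8b and chr8:126945922-126946041 (minus) for Tomm20.
Timm50: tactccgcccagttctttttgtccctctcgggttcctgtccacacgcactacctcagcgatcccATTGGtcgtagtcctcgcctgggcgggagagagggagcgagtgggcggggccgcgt
Tomm22: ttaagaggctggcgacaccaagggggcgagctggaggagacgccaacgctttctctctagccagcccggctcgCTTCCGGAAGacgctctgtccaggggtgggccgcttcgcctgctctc
Timm23: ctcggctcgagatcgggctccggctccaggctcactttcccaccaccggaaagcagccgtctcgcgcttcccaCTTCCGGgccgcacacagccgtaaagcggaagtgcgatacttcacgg
Pmpcb: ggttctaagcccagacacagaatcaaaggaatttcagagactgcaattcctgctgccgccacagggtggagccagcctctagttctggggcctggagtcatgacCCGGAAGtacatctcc
Timm8b: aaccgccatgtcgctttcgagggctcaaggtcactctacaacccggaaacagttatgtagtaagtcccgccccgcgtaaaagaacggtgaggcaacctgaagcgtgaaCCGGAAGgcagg
Tomm20: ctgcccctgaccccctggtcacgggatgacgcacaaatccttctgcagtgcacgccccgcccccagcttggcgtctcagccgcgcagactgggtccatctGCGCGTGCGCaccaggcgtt
In Tomm22 the capitals are 2 overlapping matches, 1 on each strand. The ETS core stands before the start of the lower genes Tomm22, Timm23 and Pmpcb and of the higher gene Timm8b alike.

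In the TOM channel group, 2 of 4 tested genes were lower, the gene of the pore and its paralog, and the small subunit genes did not pass. Counts per group, here and below, rest on few genes. They stand beside 27.9% lower over all tested genes and 39.3% lower among the more abundant protein-coding genes. In what follows, a number in brackets after a named alternative is the adjusted p under it. Tomm40 (ENSMUSG00000002984) encodes the barrel that forms the channel. It measured 115, 112 and 113 CPM in control replicates 1, 2 and 3, and 83.1, 81.1 and 82.1 CPM in treated replicates 1, 2 and 3. Every treated library was far below every control, and the gap was many times the spread within either group. The log2 fold change was -0.46 ± 0.03 (SE, edgeR adjusted p = 6.29e-12). Tomm40l (ENSMUSG00000005674), a paralog of Tomm40, measured 12.9, 12.1 and 10.5 CPM in control and 11, 9.98 and 9.37 CPM in treated replicates. These groups overlapped, since treated replicate 1 lay above control replicate 3. Its log2 fold change was -0.23 ± 0.09 (edgeR adjusted p = 0.0408), a call lost with library totals, the 1 CPM filter, DESeq2 (0.0764) and without control replicate 1 or 2 or treated replicate 2 or 3 (edgeR adjusted p up to 0.218). Its exons share 64.3% of their length with Nr1i3 on the opposite strand, which had 6 counts in all libraries together.

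Tomm5 and Tomm7 encode small subunits that stabilise the TOM complex. Tomm5 (ENSMUSG00000078713) measured 41.0, 37.9 and 41.5 CPM in control and 37.8, 40.2 and 38.6 CPM in treated replicates. The groups overlapped. This gave a log2 fold change of -0.05, with a 95% interval of -0.15 to 0.05 (edgeR adjusted p = 0.432). Tomm7 had a log2 fold change of -0.02, with an interval of -0.09 to 0.05 (edgeR adjusted p = 0.659), so both intervals exclude a fall as large as that of Tomm40. The signs of Tomm5 and Tomm7 turned with library totals, and that of Tomm7 also with level-dependent (cyclic loess) offsets. Tomm6, a further small subunit gene, held 0, 1 and 0 counts in control and 2, 3 and 1 counts in treated replicates and was not tested. The exons of Tomm6 share 76% of their length with the overlapping gene Gm21981 on the same strand, which had 7 counts in all, and whether the counting of shared reads sets the level of Tomm6 was not tested.

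All 3 tested TOM receptor genes were lower. Tomm22 (ENSMUSG00000022427), the central receptor that also holds the complex together, measured 139, 140 and 143 CPM in control and 115, 114 and 113 CPM in treated replicates. The treated values were below all controls and within a narrow range. The log2 fold change was -0.30 ± 0.03 (edgeR adjusted p = 2.33e-09), in the gene whose promoter carries the paired ETS letters printed above. Tomm70a (ENSMUSG00000022752), the receptor for carrier proteins handed over by cytosolic chaperones, measured 298, 300 and 294 CPM in control and 253, 249 and 256 CPM in treated replicates. These groups were also separate, with a log2 fold change of -0.23 ± 0.02 (adjusted p from edgeR = 1.50e-08), which was -0.11 with level-dependent offsets. Tomm20 (ENSMUSG00000093904), the receptor for presequences, measured 240, 247 and 245 CPM in control and 219, 227 and 224 CPM in treated replicates. The groups did not overlap. Its log2 fold change was -0.13 ± 0.03 (edgeR adjusted p = 1.48e-04), and the call was lost with level-dependent offsets (0.826) and library totals (0.0916). Tomm20l, a paralog of Tomm20, held 2 counts in control replicate 1 and 0 in each other library. Tomm34 (ENSMUSG00000018322), a cytosolic co-chaperone of Hsp70 and Hsp90 that carries a Tomm name, had a log2 fold change of -0.01 with an interval of -0.11 to 0.10 (edgeR adjusted p = 0.906), and its sign depended on the setting.

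The genes of the outer membrane insertion machinery SAM were all lower. Samm50 (ENSMUSG00000022437), which encodes the barrel at its core, measured 162, 158 and 161 CPM in control and 120, 119 and 123 CPM in treated replicates. The treated libraries stood clearly below the controls. This gave a log2 fold change of -0.41 ± 0.03 (adjusted p from edgeR = 1.09e-11). Mtx1 and Mtx2 encode metaxins, the cytosolic-side partners of Samm50. Mtx1 (ENSMUSG00000064068) measured 36.8, 36.4 and 35.9 CPM in control and 24.3, 24.5 and 26.0 CPM in treated replicates, and its fall of 0.54 ± 0.05 on the log2 scale (edgeR adjusted p = 9.53e-09) was among the larger ones. Exons of Mtx1 overlap Gm43737 and Thbs3 on the opposite strand over 21.2% and 8.87% of their length. Neither partner passed the test, with a log2 fold change of 0.08 for Gm43737 and 0.02 for Thbs3. Mtx2 (ENSMUSG00000027099) measured 81.3, 76.3 and 80.6 CPM in control and 71.5, 69.2 and 69.5 CPM in treated replicates. It was lower in all treated libraries too, by a smaller log2 fold change of -0.18 ± 0.03 (adjusted p from edgeR = 1.20e-04), which came to -0.11 with level-dependent offsets and -0.10 with library totals.

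The small TIM chaperones, which escort hydrophobic proteins across the intermembrane space, were split. Of 6 tested genes, 3 were lower, 1 was higher and 2 did not pass, against 39.3% lower among the more abundant protein-coding genes. Timm13 (ENSMUSG00000020219) measured 111, 110 and 108 CPM in control and 78.9, 80.6 and 84.3 CPM in treated replicates. The groups were far apart. The log2 fold change was -0.43 ± 0.03 (edgeR adjusted p = 6.66e-11). Timm8b (ENSMUSG00000039016), of the Timm8 family whose members pair with Timm13, measured 47.1, 47.4 and 47.4 CPM in control and 52.0, 53.0 and 51.7 CPM in treated replicates. It was the tested import gene that rose, with every treated library above every control. Its log2 fold change was 0.14 ± 0.04 (edgeR adjusted p = 0.00343), a rise of 10.4% that passed under each of the 14 alternatives and was 0.22 with library totals. Exons of Timm8b overlap Nkapd1 on the opposite strand over 15.6% of their length, and Nkapd1 had a log2 fold change of 0.01 (adjusted p from edgeR = 0.847).

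Timm9 (ENSMUSG00000021079), which forms a ring with Timm10, measured 39.6, 40.5 and 38.4 CPM in control and 35.6, 36.2 and 35.5 CPM in treated replicates. The groups were separate but close. This gave a log2 fold change of -0.14 ± 0.05 (adjusted p from edgeR = 0.0114), and the call was lost with library totals (0.243) and without control replicate 2 (0.0527). Timm8a1, whose human counterpart is the gene of a deafness and dystonia syndrome, had a log2 fold change of -0.21 ± 0.07 (adjusted p from edgeR = 0.0166), lost with library totals (0.125), without control replicate 2 (0.0646) and without treated replicate 3 (0.0893). Timm10 did not pass, at -0.12 with an interval of -0.26 to 0.03 (edgeR adjusted p = 0.172), nor did Timm10b, at -0.14 with an interval of -0.36 to 0.08 (edgeR adjusted p = 0.280). Exons of Timm10b overlap Arfip2 on the opposite strand over 7.73% of their length, and Arfip2 held 17801 counts in all. They overlap Gm45799 on the same strand over 10.5%, with 26 counts in all. What shared reads add to Timm10b was not tested. Timm8a2, a paralog of Timm8a1, held 2 counts in control replicate 3, 2 in treated replicate 1 and 0 elsewhere. Timm8a1 held between 477 and 728 counts in each library. Whether reads that match both genes affect its value was not tested.

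Both genes of the TIM22 carrier translocase were lower. Timm22 (ENSMUSG00000020843), its channel subunit, measured 63.6, 62.3 and 64.2 CPM in control and 50.3, 46.6 and 52.3 CPM in treated replicates. All treated libraries were below the controls, with a wider spread among them. The log2 fold change was -0.35 ± 0.04 (edgeR adjusted p = 2.37e-07). Timm29 (ENSMUSG00000048429), which links TIM22 to the outer membrane gate, measured 49.2, 50.8 and 48.6 CPM in control and 47.2, 44.1 and 46.2 CPM in treated replicates. The groups did not overlap, by a small margin. The log2 fold change of -0.11 ± 0.04 (adjusted p from edgeR = 0.0275) did not pass with library totals, level-dependent offsets, the 1 CPM filter, DESeq2 (0.0723), or without control replicate 1 or 2 or treated replicate 2 (edgeR adjusted p up to 0.513).

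In the TIM23 presequence translocase, 3 of 5 genes were lower, with the receptor and channel genes falling most, and 2 did not pass. Timm50 (ENSMUSG00000003438), the receptor that accepts presequences from the outer membrane, measured 93.1, 95.6 and 91.2 CPM in control and 59.5, 64.8 and 61.6 CPM in treated replicates. Its log2 fold change of -0.59 ± 0.04 (adjusted p from edgeR = 3.31e-12), a fall of 33.6% on the fitted scale, was the largest among the tested import genes. No treated library came near a control. Timm23 (ENSMUSG00000013701), a channel subunit, measured 70.8, 67.7 and 68.1 CPM in control and 49.2, 54.3 and 52.6 CPM in treated replicates. The groups were well apart, with a log2 fold change of -0.40 ± 0.04 (adjusted p from edgeR = 1.30e-08). Timm17a (ENSMUSG00000062580), a partner of Timm23 in the translocase, measured 132, 131 and 131 CPM in control and 123, 118 and 117 CPM in treated replicates. It was lower in each treated library, at a log2 fold change of -0.14 ± 0.03 (adjusted p from edgeR = 1.88e-04), but the call was lost with library totals (0.0685) and level-dependent offsets (0.194). Its paralog Timm17b had a log2 fold change of -0.08 with an interval of -0.21 to 0.05 (edgeR adjusted p = 0.275). Timm21 (ENSMUSG00000024645), which couples the translocase to TOM and to the assembly of respiratory complexes, measured 18.7, 19.5 and 18.4 CPM in control and 18.0, 21.4 and 19.2 CPM in treated replicates. These groups overlapped, and the log2 fold change was 0.05 with an interval of -0.10 to 0.20 (edgeR adjusted p = 0.599). Without treated replicate 2 it was -0.03.

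**Figure D3:**
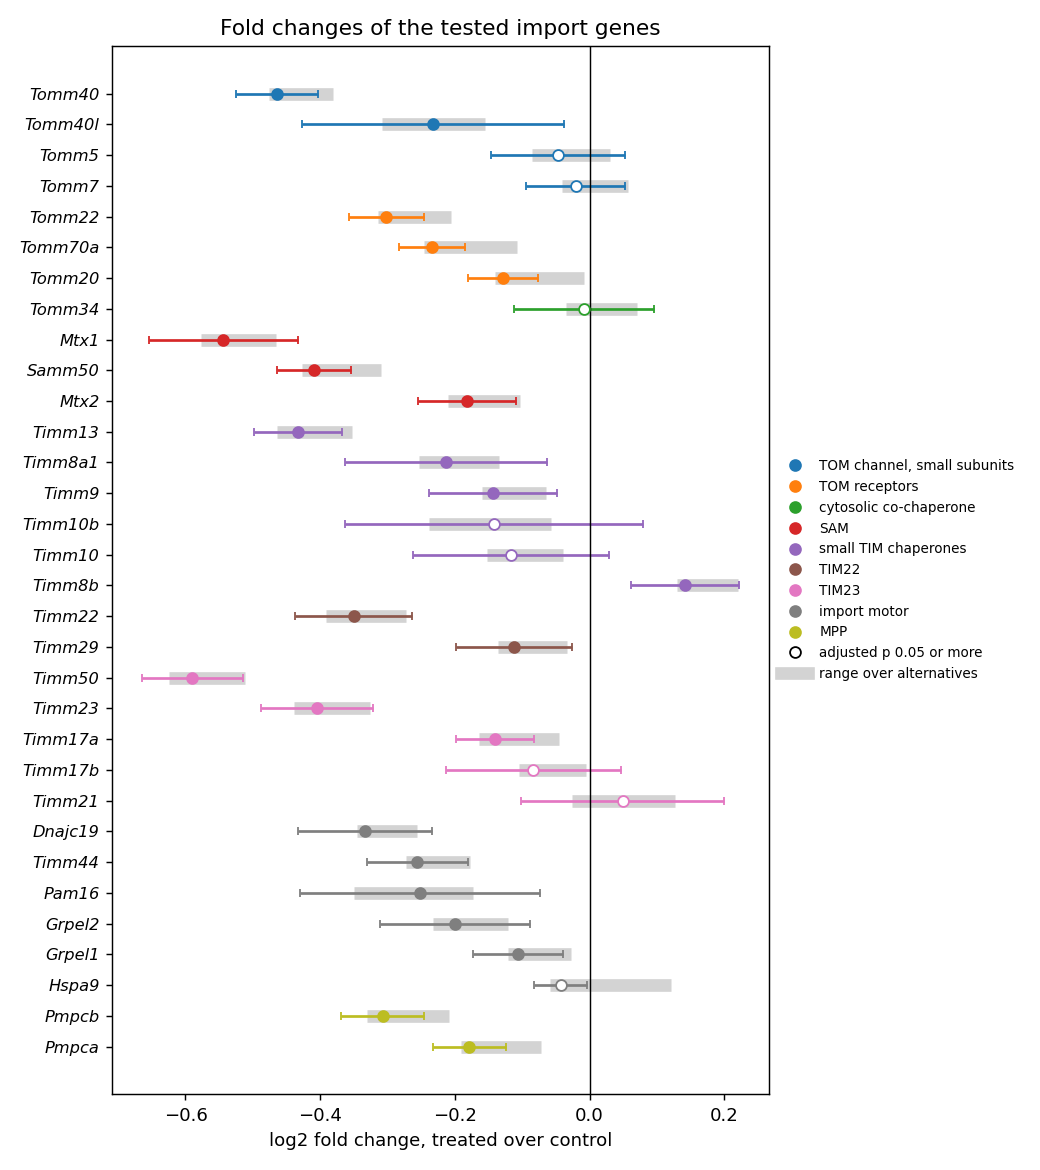
Log2 fold change, treated over control, of the 32 tested import genes (horizontal axis) with 95% intervals from the edgeR fit, coloured by role, with open circles where the adjusted p was 0.05 or more and grey bars for the range over the reported setting and the 14 alternatives. Timm50 at -0.59 and Mtx1 at -0.54 lie farthest left, and Timm8b at 0.14 is the filled point right of 0.

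Of the 6 import motor genes, 5 were lower and Hspa9, the most abundant, did not pass. Timm44 (ENSMUSG00000002949), which tethers the motor to the channel, measured 66.3, 66.0 and 64.7 CPM in control and 54.7, 54.3 and 56.0 CPM in treated replicates. The groups were separate, with a log2 fold change of -0.26 ± 0.04 (adjusted p from edgeR = 2.43e-06). Dnajc19 (ENSMUSG00000027679), a J-domain cofactor that stimulates the ATPase of the motor chaperone, measured 38.1, 38.1 and 38.3 CPM in control and 30.1, 30.2 and 30.6 CPM in treated replicates. Replicates of Dnajc19 were very close within each group, and the log2 fold change was -0.33 ± 0.05 (edgeR adjusted p = 3.08e-06). Exons of Dnajc19 overlap Fxr1 on the opposite strand over 4.42% of their length, and Fxr1 held 32991 counts in all. What shared reads add to Dnajc19 was not tested. Pam16, the partner that holds Dnajc19 in check, had a log2 fold change of -0.25 ± 0.09 (adjusted p from edgeR = 0.0169) with overlapping groups, and the call was lost with library totals (0.0933) and without control replicate 2 (0.0738) or 3 (0.107). Exons of Pam16 overlap Glis2 over 18.7% of their length, and Glis2 rose by 0.74 on the log2 scale. What shared reads add to the value of Pam16 was not tested.

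Grpel1 and Grpel2 encode nucleotide exchange factors that reset the motor chaperone. Grpel2 (ENSMUSG00000024580) measured 37.4, 37.7 and 42.9 CPM in control and 34.4, 34.8 and 33.6 CPM in treated replicates. Control replicate 3 was the highest, and the groups did not overlap. This gave a log2 fold change of -0.20 ± 0.05 (adjusted p from edgeR = 0.00319), lost with library totals (0.0626), and it was -0.13 without control replicate 3 (0.0432). Grpel1 changed by -0.11 ± 0.03 on the log2 scale (edgeR adjusted p = 0.00840), lost with library totals (0.491), level-dependent offsets (0.475) and without control replicate 1 (0.0725). Its exons share 11.6% of their length with Tada2b, which was lower at -0.30, and what shared reads add was not tested. Hspa9 (ENSMUSG00000024359), which encodes mortalin, the mitochondrial Hsp70 at the centre of the motor, measured 922, 955 and 965 CPM in control and 915, 917 and 927 CPM in treated replicates. The groups overlapped, since control replicate 1 lay within the treated range. Its log2 fold change was -0.04, with an interval of -0.08 to -0.004 (edgeR adjusted p = 0.0612). Its direction depended on the scaling. It passed as lower with no filter (0.0159), with the replicate block (0.0436), without control replicate 1 (0.00947) and without treated replicate 3 (0.0437), and as higher with level-dependent offsets (log2 fold change 0.12, edgeR adjusted p = 9.07e-06).

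Both subunit genes of MPP, which removes presequences in the matrix, were lower. Pmpcb (ENSMUSG00000029017), the catalytic subunit, measured 155, 151 and 145 CPM in control and 118, 123 and 124 CPM in treated replicates. Pmpca (ENSMUSG00000026926), the subunit that recognises substrates, measured 170, 172 and 167 CPM in control and 152, 150 and 148 CPM in treated replicates. In both genes every treated library was below every control. The log2 fold change was -0.31 ± 0.03 for Pmpcb (edgeR adjusted p = 7.06e-09) and -0.18 ± 0.03 for Pmpca (edgeR adjusted p = 4.08e-06). That of Pmpca came to -0.07 with level-dependent offsets and -0.10 with library totals, and passed under both. Exons of Pmpca share 20.4% of their length with Inpp5e, which had a log2 fold change of -0.02.

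Partners in a complex and paralogs were compared by their ratio, and no difference between them passed a test. Ratios of counts per kilobase within a library were compared for 11 pairs with a two-sided exact permutation test over the 3 and 3 libraries. A single scaling factor per library does not change such a ratio, but level-dependent offsets can. The smallest p this design allows is 0.1, so no pair could pass, and 6 pairs had groups that did not overlap (exact p = 0.1, adjusted p = 0.183 over the 11 pairs). The share of other gene pairs without overlap was not computed, and groups did not overlap for 58.7% of all single genes tested, so the count of 6 is given as a description. The log2 ratio of Mtx1 to Mtx2 was -1.11, -1.03 and -1.13 in control and -1.52, -1.46 and -1.38 in treated replicates, a difference of -0.36. Timm8a1 against its paralog Timm8b went from a mean of -2.79 ± 0.05 to -3.15 ± 0.08 (SD, n = 3), a difference of -0.36. In both pairs the first gene became less abundant relative to the second in every treated library.

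Timm8a1 against Timm13, its partner in a ring, went the other way, from -2.60 ± 0.04 to -2.38 ± 0.14, a difference of 0.22. Its separation was marginal, since control replicate 2 and treated replicate 3 were both at -2.55. Tomm40 against Tomm40l differed by -0.23, Pmpca against Pmpcb by 0.13 and Tomm20 against Tomm70a by 0.11, the last with a spread of at most 0.04. Level-dependent offsets brought the log2 fold changes of Tomm40 and Tomm40l (-0.38 and -0.31) and of Timm8a1 and Timm13 (-0.24 and -0.35) closer together. They moved those of Mtx1 and Mtx2 (-0.53 and -0.11) and of Timm8a1 and Timm8b (-0.24 and 0.19) further apart. The other 5 pairs had overlapping groups, with exact permutation p between 0.4 and 0.9. These were Timm17a to Timm17b (-0.06), Grpel1 to Grpel2 (0.09), Timm9 to Timm10 (-0.03), Pam16 to Dnajc19 (0.09) and Timm22 to Timm23 (0.05). The channel genes of the TIM22 and TIM23 complexes had a mean log2 ratio of -0.95 ± 0.04 in control and -0.90 ± 0.14 in treated libraries.

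**Figure D4:**
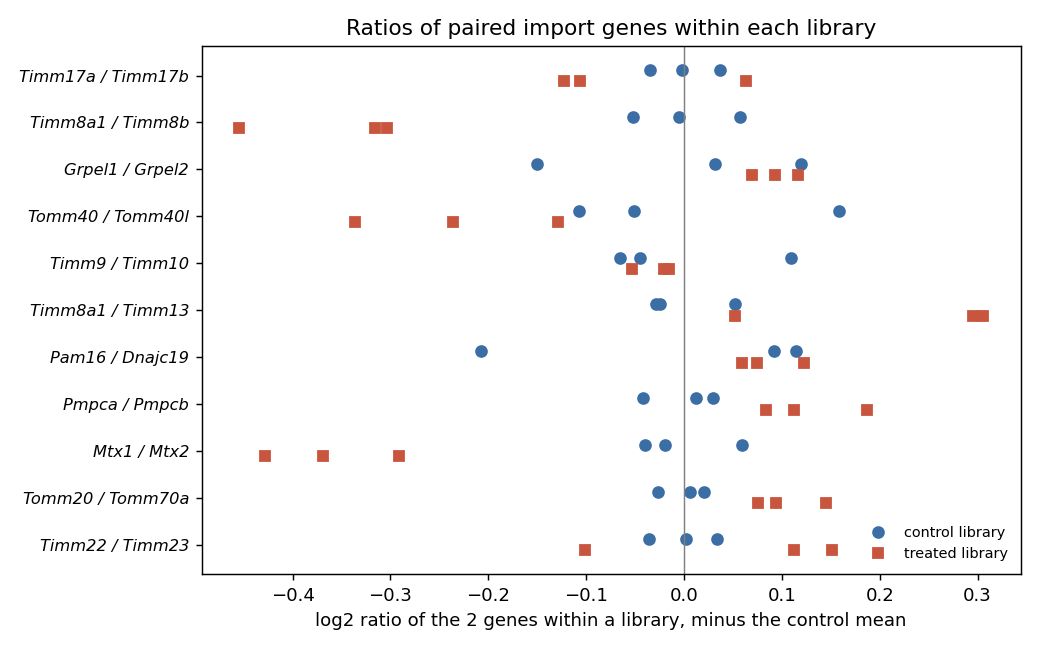
Log2 ratio of counts per kilobase of 2 import genes within each library, minus the mean of the control libraries (horizontal axis), for 11 pairs, with circles for control and squares for treated libraries. Mtx1 to Mtx2 and Timm8a1 to Timm8b lie well left of the controls in all 3 treated libraries, and 5 of the 11 pairs overlap.

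Genes that work beside these complexes were described by list, against shares of 27.9% lower and 25.1% higher over all tested genes. Of 8 genes for outer membrane insertion and pores, 7 were lower and 1 did not pass, with a median log2 fold change of -0.18. Dnajc11, a J-protein associated with SAM, fell by 0.41 on the log2 scale, and Mtch2, an outer membrane insertase, fell by 0.24. The porin gene Vdac3 fell by 0.24 and Armc1 by 0.22. The 3 genes around disulfide relay import (Chchd4, Gfer and Aifm1) were all lower, by 0.20, 0.19 and 0.20 with a median log2 fold change of -0.20. Chchd4 encodes the oxidoreductase that traps small TIM proteins in the intermembrane space.

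Inner membrane partners were mixed, with 4 lower and 2 higher of 9 (median -0.10). Slc25a5 and Slc25a4, ADP/ATP carriers that are themselves clients of TIM22, fell by 0.48 and 0.42. The insertase gene Oxa1l fell by 0.41 (edgeR adjusted p = 1.31e-08). Ghitm, which encodes an inner membrane protein, rose by 0.45, and Romo1, a small protein of the TIM23 complex, rose by 0.26. Of 7 genes for presequence processing and degradation, 4 were lower and 2 higher (median -0.23). Among them Parl, Pitrm1, Mipep and Nln fell by 0.33, 0.23, 0.33 and 0.23, and the inner membrane peptidase genes Immp2l and Immp1l passed as higher at 0.85 and 0.20. Immp2l held 163 counts over all libraries (edgeR adjusted p = 0.0371), and the groups overlapped for Immp1l (edgeR adjusted p = 0.0460). Mipep encodes the peptidase that trims some proteins after MPP, and Pitrm1 encodes a peptidase that degrades freed presequences.

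Of 7 matrix chaperone genes, 3 were lower, 1 was higher and 3 did not pass (median -0.06). Hspd1, which encodes the folding chamber Hsp60, fell by 0.38, from 1631 ± 29.6 to 1253 ± 38.4 CPM (edgeR adjusted p = 1.51e-13), while its co-chaperonin gene Hspe1 had a log2 fold change of -0.01 (adjusted p from edgeR = 0.656). Dnaja3 and Trap1 fell by 0.16 and 0.15, and Hscb rose by 0.27. Of 8 quality control protease genes, 6 were lower and 1 higher (median -0.11). The unfoldase gene Clpx fell by 0.41, Afg3l2 by 0.22 and Clpp by 0.20, and the matrix protease gene Lonp1 rose by 0.12. Of 7 cristae-organising MICOS genes, 3 were lower and 1 higher (median -0.14). Immt, Chchd3 and Apoo fell by 0.19, 0.17 and 0.21, while 2410015M20Rik (Micos13) rose by 0.20 (edgeR adjusted p = 3.31e-05).

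Of 12 genes for cytosolic delivery, 9 were lower and 2 higher (median -0.15), with Hsp90ab1 and Stip1 falling by 0.38 and 0.29 and Hspa8 rising by 0.35. Of 10 genes that respond to import failure or act on stalled precursors, 6 were lower and 3 higher (median -0.10). Atf5, a transcription factor of the mitochondrial stress response, rose by 0.52, and the kinase gene Pink1, whose product accumulates on mitochondria that cannot import it, rose by 0.50. Ddit3, a transcription factor of the integrated stress response, fell by 0.51, and March5, a ubiquitin ligase of the outer membrane, fell by 0.18. Of 12 genes for nuclear regulators of mitochondrial genes, 4 were lower and 4 higher (median -0.07). Myc and Ppargc1a rose by 0.36 and 0.35, while Pprc1 and Max fell by 0.29 and 0.19. Nrf1 was lower at -0.18 and Gabpa higher at 0.10, which encode the NRF1 factor and a GABP subunit named above with the promoter motifs. Gabpb1, the other GABP subunit gene listed, did not pass at -0.08 (edgeR adjusted p = 0.136). Yy1 was higher at 0.12 (edgeR adjusted p = 3.20e-04).

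The nearest comparable gene families were described beside the import genes with no test of the differences between families. Of 77 genes with an Mrpl or Mrps symbol, mostly of mitochondrial ribosomal proteins, 63 were lower (81.8%) and 4 higher. Their median log2 fold change was -0.28. Of 38 genes with an Ndufa, Ndufb, Ndufc, Ndufs or Ndufv symbol, mostly of complex I subunits, 20 were lower (52.6%) and 5 higher. Their median was -0.11. This list, taken by symbol, includes Ndufa4 and Ndufa4l2. The import genes lay between these, at 71.9% and -0.19. Of 13 protein-coding genes of mitochondrial DNA, 9 were lower and 2 higher, with a median of -0.17, but their summed level overlapped between groups, with controls at 28400 to 29100 CPM and treated libraries at 28400 to 29500 CPM. Within that sum mt-Co1 rose by 0.23 and mt-Cytb fell by 0.44.

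**Figure D5:**
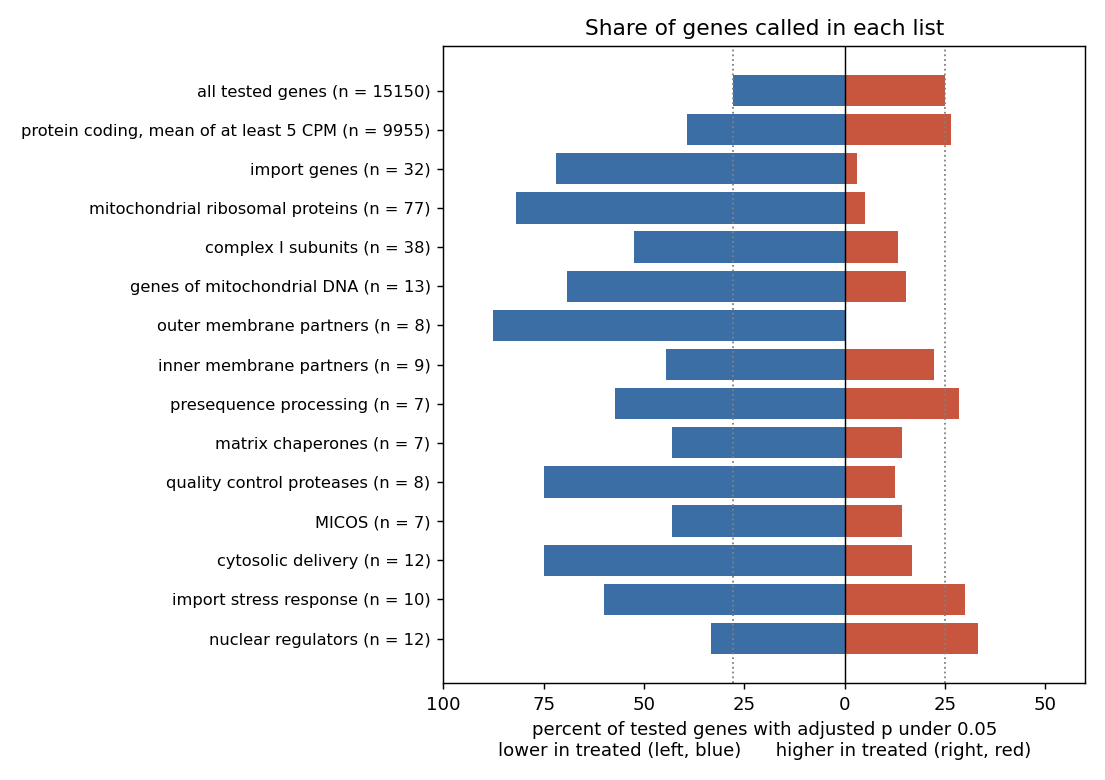
Percent of tested genes with an edgeR adjusted p under 0.05, lower (left, blue) or higher (right, red) in treated cells, for all tested genes, for the import genes and for related lists, with n tested in brackets and dotted lines at the shares of all tested genes (27.9% lower, 25.1% higher). The bar of the import genes reaches 71.9% on the lower side.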

How the data were processed

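The authors deposited a table of unnormalised read counts per Ensembl mouse gene, with 1 column per library. Per the submitters' processing notes, fastp 0.22.0, HISAT2 2.2.0 and featureCounts 2.0.6 were used, and a human and a mouse build are listed (hg38 and mm39). Neither the annotation release nor the strand setting is given in the sources used here. Counts of genes that overlap are therefore uncertain. Columns were matched to samples by the library names in the labels, and 0 were left over. Symbols, types and exon lengths came from GENCODE M21 (GRCm38), which named 26531 of 27067 identifiers.

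Genes passing filterByExpr (minimum count 10, minimum total 15), 15150 in all, were fitted with edgeR 4.0.16 in R 4.3.3 (TMM factors, glmQLFit, glmQLFTest, two-sided, group as the single term) with Benjamini-Hochberg adjustment over all of them. SE is the absolute log2 fold change over the square root of F. The procedure was tested on simulated data. Cyclic loess (limma 3.58.1) supplied the level-dependent offsets, and DESeq2 1.42.0 was an alternative. CPM uses TMM-scaled totals. Promoter windows are from RefSeq (GRCm38.p6).

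The import genes were taken by symbol, without use of a measured value. Earlier results of these data were known when genes, lists, pairs and tests were chosen. Genes were named by role, with all libraries' values for the 3 smallest p per role and for genes against their group, and up to 4 genes per other list. Chosen after their values were seen were Romo1, Hspe1, Immp1l, Immp2l, Nrf1, Gabpa, Gabpb1, Yy1 and the overlapping genes. So were the promoter motifs, the promoters printed, the group of protein-coding genes of at least 5 CPM and the 20% class. Alternatives were library totals, median-of-ratios factors, level-dependent offsets, no filter, a 1 CPM filter, protein-coding genes alone, the replicate number as a block, DESeq2 and each library left out.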

Additional observations from a re-analysis of the deposited data

How the results depend on the processing

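Of 448 comparisons of a gene with an alternative, 402 kept direction and call. Of the 23 lower genes, 14 passed as lower under all 14 alternatives and 9 lost the call under at least 1, and Timm8b passed as higher under all. Lower import genes numbered 14 with library totals, where 20.1% of all tested genes were lower. Higher import genes numbered 2 with level-dependent offsets, where Hspa9 passed at a log2 fold change of 0.12028. Under these offsets 19 import genes and 25.2% of all tested genes were lower, and 50.4% of all calls were higher. Leaving out 1 library gave 18 to 23 lower import genes, the 18 without control replicate 2. In these fits 25.2% to 26.4% of all tested genes were lower. Signs turned with library totals for Hspa9 (0.035156), Tomm34 (0.069898), Tomm5 (0.031009) and Tomm7 (0.057656), and with level-dependent offsets for Tomm34 (0.016104) and Tomm7 (0.044531). Tomm34 was also above 0 with the 1 CPM filter (0.0089593) and with protein-coding genes alone (3.2924e-05). Leaving out 1 library moved Tomm34 between -0.034806 and 0.014712, Timm21 between -0.025519 and 0.10299, the log2 ratio of Timm9 to Timm10 between -0.061833 and 0.025667, and that of Pam16 to Dnajc19 between -0.01815 and 0.14285. The cause was not tested. Libraries of the same replicate number showed little common deviation over genes (correlations of deviations -0.01, -0.011 and 0.052). Such values cannot show how same-numbered libraries were prepared. With the replicate block 24 import genes were lower and 1 higher, a change made by Hspa9, and 28.1% of all tested genes were lower.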
